A study of Mus musculus with 16 samples.

Results

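The genes described here are 10 genes of inherited polycystic kidney disease and its mouse models, chosen by name. They are Pkd1, Pkd2, Pkhd1, Cys1, Dzip1l, Ganab, Prkcsh, Bicc1, Anks6 and Glis3. Each was found by its symbol in the table of TPM values (transcript abundance per length, scaled to a fixed total in each library) and by the same Ensembl identifier in the count table, which lists 54393 genes. RNA was sequenced from mIMCD3 cells, an epithelial line made from the inner medulla of the kidney of a mouse carrying SV40 sequences. The cells are labelled wild type, and no inducible construct is named for them. All groups were kept for 10 days on permeable filters and then received doxycycline (DOX, 2 µg/mL) or its solvent DMSO, so that the 4 groups were DMSO for 3 days, DOX for 3 days, DMSO for 6 days and DOX for 6 days, with 4 libraries in each. DOX is the drug that switches tetracycline-controlled transgenes on or off, and such transgenes have been used to remove or express several of these genes, so the question put to the data was how far DOX alone moved them. It is 1 immortalized line, and the labels do not say whether replicate libraries came from separate cultures, so the p-values measure the spread between these libraries only.

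Polycystic kidney disease is a disease of the tubule epithelium, in which tubules widen into fluid-filled cysts. Most of the proteins affected act at or on the way to the primary cilium, a sensory antenna on the apical face of the tubule cell. Polycystin-1 and polycystin-2 form a receptor and channel complex there, and mutations in their genes cause the dominant disease, while fibrocystin, the product of Pkhd1, and DZIP1L are affected in the recessive disease. Glucosidase II trims sugars from new glycoproteins in the endoplasmic reticulum and is needed for polycystin-1 to mature, and Cys1, Bicc1, Anks6 and Glis3 were each tied to cysts through mutant rodents or patients.

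The libraries held 16933343 to 23960860 assigned reads, and replicates of a group correlated at 0.9967 to 0.9986 on the log2 scale. Epithelial marker genes were abundant, with summed levels of 2180 to 2594 TPM in DMSO libraries and 1465 to 1734 TPM in DOX libraries over 5 genes. The 8 principal cell markers, which would mark the cell type of the collecting duct that carries Aqp2, summed to only 6.89 to 10.1 TPM in DMSO and 3.08 to 4.99 TPM in DOX, and Aqp2 itself had a median of 0.0985 TPM, so the labelled origin was not visible in these markers. Stromal, endothelial and intercalated cell markers summed to 1.13 TPM or less in every library. The 3 leukocyte markers summed to 17.3 to 24.6 TPM in DMSO and 7.86 to 12.6 TPM in DOX, nearly all of it Cd68, and the 3 proximal tubule markers to 2.05 to 18.7 TPM over all libraries. The part of these marker shifts in the results was not tested. The DOX 3-day group was not uniform. Longer transcripts were relatively lower in its replicates 2, 3 and 4, where log2 CPM (counts scaled to a fixed library total) changed by -0.0832 to -0.108 for each doubling of transcript length against the mean of all libraries, and not in its replicate 1, at 0.0296. All 4 DMSO 3-day libraries had positive slopes, from 0.0347 to 0.0897, so the 3-day comparison set libraries with opposite length trends against each other. For each of the 10 genes the 3-day log2 fold change is therefore given also without DOX 3-day replicate 1 and after correcting for length and GC content of transcripts. In the 6-day groups the slopes overlapped, from -0.0622 to 0.0731 in DMSO and from -0.0334 to 0.0357 in DOX.

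The bases just before the start of Cys1 and Pkd1 are shown because the results turn on these genes: Cys1 had the lowest fold change of the 10 and Pkd1 rose at 6 days. They come from RefSeq (GRCm38.p6) and are written 5′ to 3′ on the strand of the gene, all in lower case, and are limited to the bases that lie before the start of the gene in both RefSeq and GENCODE M21.
Cys1, chr12:24681814-24682045, minus strand: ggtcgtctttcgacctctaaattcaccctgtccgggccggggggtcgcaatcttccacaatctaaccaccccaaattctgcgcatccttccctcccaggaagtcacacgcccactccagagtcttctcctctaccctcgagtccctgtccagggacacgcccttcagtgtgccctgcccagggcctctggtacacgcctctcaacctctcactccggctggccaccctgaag
Pkd1, chr17:24549700-24549833, plus strand: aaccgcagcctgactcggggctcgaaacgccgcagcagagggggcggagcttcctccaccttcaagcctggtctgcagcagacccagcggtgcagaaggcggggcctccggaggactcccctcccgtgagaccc
Windows from 250 bases before to 50 bases after the start were at hand for 8 of the 10 genes, the exceptions being Bicc1 and Anks6. The share of G and C was 59.0% in the window of Cys1 and 66.7% in that of Pkd1, where the median of all 32851 windows was 52.7%. Among the other genes it ran from 43.3% for Pkhd1 to 76.3% for Glis3. These shares describe the letters and were not related to the effect of DOX.

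In the DMSO libraries the 10 genes covered a wide range of levels, compared here per length as TPM. The highest was Ganab, with a mean of 127.77 ± 11.5 TPM (SD, n = 8), followed by Prkcsh at 75.5 ± 7.03, Bicc1 at 51.7 ± 7.67 and Cys1 at 31.1 ± 3.92 TPM. Glis3 at 21.4 ± 3.26 and Pkd2 at 20.6 ± 2.18 TPM could not be ordered, since Glis3 was the higher in 5 of 8 libraries. Pkhd1 stood at 12.3 ± 2.27 TPM. The lowest 3 were Dzip1l at 7.66 ± 1.05, Anks6 at 6.56 ± 0.739 and Pkd1 at 6.40 ± 2.08 TPM, and here too neighbours overlapped: Dzip1l was above Anks6 in 7 of 8 libraries and Anks6 above Pkd1 in 5 of 8. The ranges of Prkcsh and Bicc1 and of Cys1 and Glis3 touched as well, although the order held in 8 of 8 libraries. Among the 53354 genes of the TPM table Ganab ranked 970 and Pkd1 9397, so the mRNA of polycystin-1 was, with those of Anks6 and Dzip1l, among the least abundant of the set, and it lay below that of Pkd2 in every library.

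Between 3 and 6 days in DMSO the 10 genes did not pass the test of a change. All 10 had negative log2 fold changes at 6 days against 3 days, from -0.26 for Cys1 to -0.03 for Dzip1l, and none was called by edgeR's quasi-likelihood test against a fold of 1.2, at an adjusted p of 1 for each. At an unadjusted p under 0.05 against this fold there was also 0 of 10 by edgeR and by DESeq2. By edgeR with no fold threshold the unadjusted p was 0.00334 for Cys1, 0.031 for Bicc1 and 0.0477 for Pkd2, and above 0.05 for the others. After adjustment none of the 10 was called in that test either. Over all 13234 genes tested, 0.0% were called against the fold of 1.2 and 0.468% with no fold threshold.

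All 10 genes had at least 1 CPM in all 8 DMSO and all 8 DOX libraries and were tested. At 3 days 3 of 10 were called, all lower (Cys1, Bicc1 and Pkhd1), where 7.22% of all genes tested were called lower and 5.3% higher. At 6 days 2 were called higher (Pkd1 and Anks6) and 1 lower (Cys1), against 10.0% and 11.6% of all genes tested. With no fold threshold 6 and 9 of the 10 were called at 3 and 6 days, where 45.2% and 50.6% of all genes were. The effect of DOX differed between 6 and 3 days for 5 of the 10 (Pkd1, Anks6, Prkcsh, Ganab and Dzip1l), each more positive at 6 days, where 17.0% of all genes were called, 7.44% more positive and 9.58% less. Bicc1 and Pkhd1, called at 3 days and not at 6, had the same sign at both times, and their effects were not shown to differ (0.11, adjusted p = 0.547, and 0.20, adjusted p = 0.421). The median log2 fold change of the 10 was -0.26 at 3 days and -0.14 at 6 days, where that of all genes tested was 0.00 at both times. By plain separation of the 4 DOX from the 4 DMSO libraries, 4 genes were lower at 3 days (Pkd2, Cys1, Dzip1l and Bicc1), against 19.8% of all genes separated in this direction, 18.8% in the other and 38.6% in all. At 6 days 4 were higher (Pkd1, Ganab, Prkcsh and Anks6) and 4 lower (Cys1, Dzip1l, Bicc1 and Glis3), against 22.1%, 20.9% and, in all, 43.0% of all genes. Since these are bulk libraries, fewer cells expressing a gene and less mRNA per cell cannot be told apart.

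**Figure D1:**
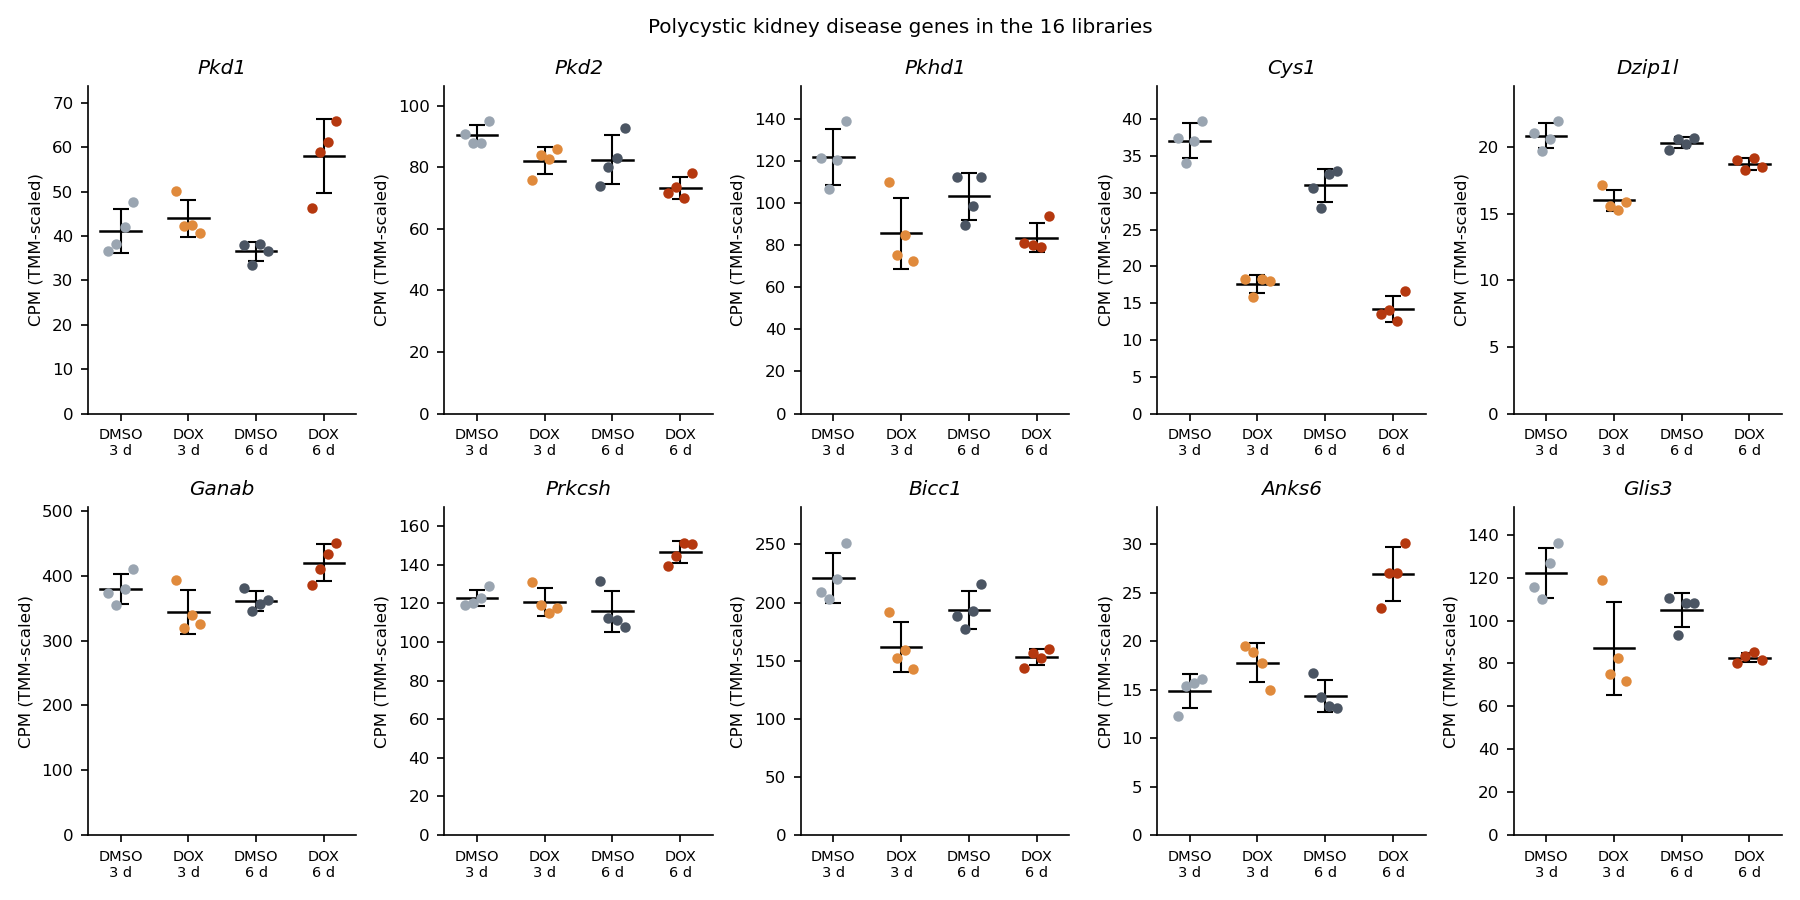
CPM scaled by TMM (y axis, from 0) of each of the 10 genes in the 4 groups (x axis); points are libraries in replicate order from left to right, and bars are the mean and SD of 4. Cys1 is lower in all 8 DOX libraries than in any DMSO library of the same time, while Pkd1 and Anks6 are separated from DMSO at 6 days and not at 3 days.

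**Figure D2:**
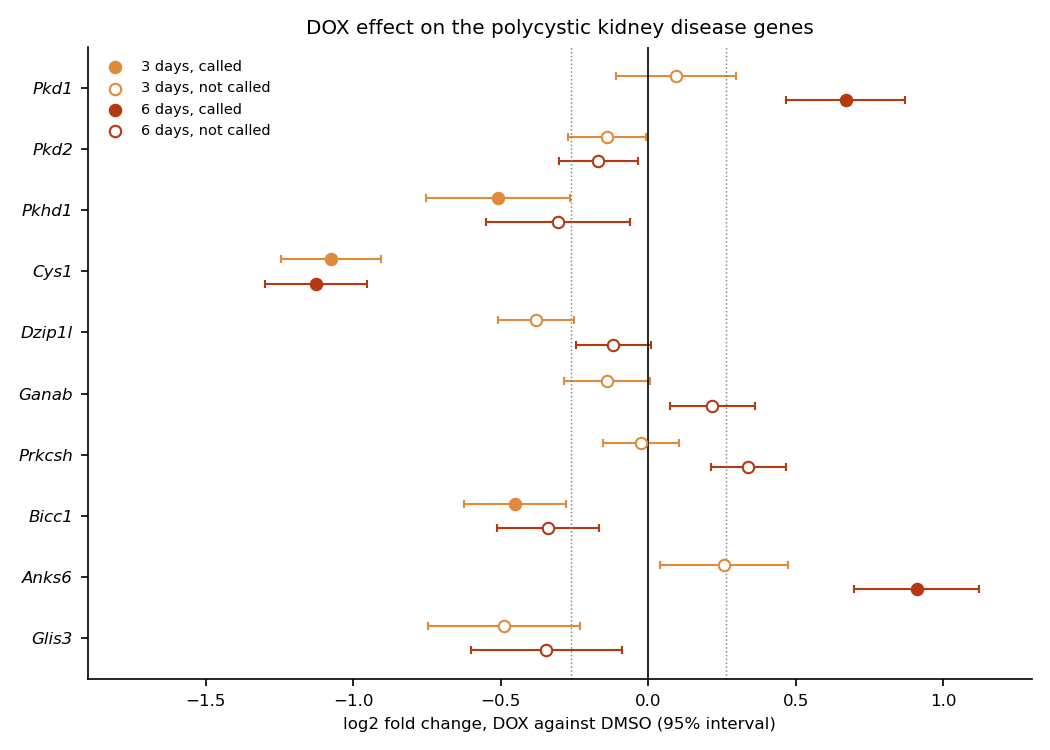
log2 fold changes of DOX against DMSO (x axis) for each gene (y axis) at 3 days (orange) and 6 days (red), with 95% intervals of the edgeR fit; filled points were called, open points were not, and dotted lines mark the fold of 1.2 against which the test was made. Cys1 lies beyond a log2 fold change of -1 at both times, and Pkd1 and Anks6 move to the right between 3 and 6 days.

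Pkd1 (ENSMUSG00000032855, chr17:24549834-24596508, plus strand, GRCm38) encodes polycystin-1, the large receptor-like partner of the complex. Its level was 36.7, 38.1, 42.0 and 47.7 CPM in the DMSO 3-day libraries and 50.2, 42.3, 42.6 and 40.7 CPM with DOX, so the groups overlapped. At 6 days it was 37.9, 33.5, 38.2 and 36.5 CPM in DMSO and 46.3, 58.9, 61.1 and 65.9 CPM in DOX, and all 4 DOX libraries lay above all DMSO libraries. The log2 fold change was 0.10 ± 0.0978 (SE; adjusted p = 1) at 3 days and 0.67 ± 0.0973 at 6 days, a 1.59-fold rise (adjusted p = 0.000431, edgeR quasi-likelihood test with Benjamini-Hochberg adjustment). The 3-day value was 0.02 without DOX replicate 1 (adjusted p = 1) and 0.29 after the length and GC correction (adjusted p = 0.586). The 6-day effect exceeded the 3-day effect by 0.57 on the log2 scale (95% interval 0.29 to 0.86, adjusted p = 0.00884), and by 0.35 after the length and GC correction (adjusted p = 0.0126). Tested by limma on log2(TPM + 1), the 6-day difference kept its size, at 0.67, and missed the threshold (adjusted p = 0.158).

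The TPM of Pkd1 was less steady than its counts. A transcript length implied by dividing counts by TPM, scaled on 179 genes with 1 transcript each, ranged from 5625 to 9187 bases over the 16 libraries, a ratio of 1.63 that was larger than in 95.8% of the 10026 genes with enough counts, where the median ratio was 1.14. The longest annotated transcript of Pkd1 has 14164 bases, and the mean of its annotated transcripts, used by the length and GC correction, is 2932.7 bases. For Pkd2 the same ratio was 1.04, for Ganab 1.04 and for Prkcsh 1.02, while Anks6 reached 1.38 and Dzip1l 1.33. The DMSO 3-day libraries give the plainest case: between replicates 1 and 4 the TPM of Pkd1 ran from 4.58 to 11.0, while its CPM ran from 36.7 to 47.7. The 3′ end of Pkd1 also shares 693 exonic bases with Tsc2 on the opposite strand, and the use of strand in counting is not given in the sources used here. Tsc2, itself a gene of inherited kidney cysts, had log2 fold changes of -0.08 and 0.13 at 3 and 6 days (adjusted p = 1 at both).

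Pkd2 (ENSMUSG00000034462, chr5:104459450-104505819, plus strand) encodes polycystin-2, the channel subunit. It stood at 90.8, 88.1, 87.9 and 95.1 CPM in DMSO and 75.9, 83.9, 82.7 and 86.1 CPM in DOX at 3 days. The corresponding values at 6 days were 73.9, 80.0, 83.0 and 92.9 CPM in DMSO and 71.6, 73.6, 70.01 and 78.3 CPM in DOX. The DOX libraries lay below the DMSO libraries at 3 days by a narrow margin, and the groups overlapped at 6 days. The log2 fold changes of -0.14 (95% interval -0.27 to -0.01) and -0.17 (-0.30 to -0.04) were not called (adjusted p = 1 at both times), so a decrease past a fold of 1.2 was not shown. The 3-day value was -0.10 without DOX replicate 1, and after the length and GC correction its sign turned, to 0.04 (adjusted p = 1 for each).

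As a ratio of TPM values within a library, Pkd1 to Pkd2 was 0.234, 0.322, 0.304 and 0.452 in DMSO and 0.471, 0.333, 0.375 and 0.358 in DOX at 3 days. At 6 days it was 0.366, 0.234, 0.260 and 0.278 in DMSO and 0.501, 0.533, 0.650 and 0.540 in DOX. The geometric means at 6 days were 0.281 in DMSO and 0.554 in DOX without overlap, a log2 difference of 0.98, with p = 0.0286 in a two-sided exact permutation test, which is the smallest p that 4 against 4 libraries allow, and an adjusted p of 0.0571 over the 6 ratio tests made. At 3 days the difference of 0.26 had an adjusted exact p of 0.286, and without DOX replicate 1 it was 0.15 (adjusted exact p = 0.543). None of the 6 ratio tests passed 0.05 after adjustment. With p bounded at 0.0286, passing would have needed more of the 6 tests at that bound. In CPM the 6-day ratio of Pkd1 to Pkd2 ran from 0.393 to 0.513 in DMSO and from 0.647 to 0.872 in DOX. The part of the unsteady TPM of Pkd1 in the TPM ratio was not tested.

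**Figure D3:**
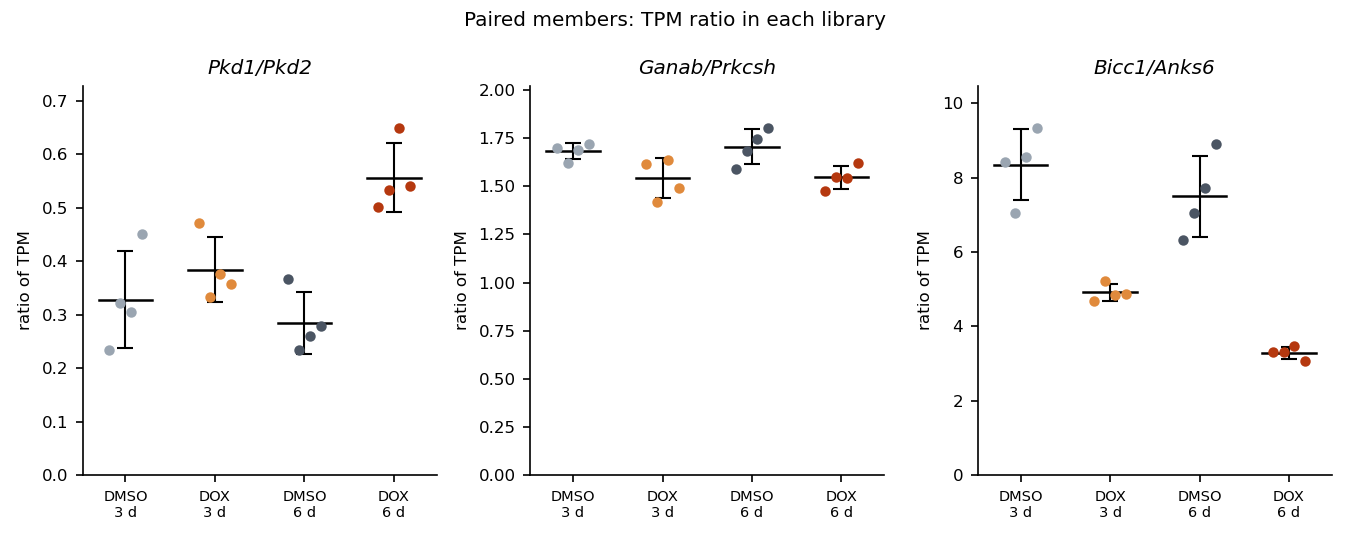
Ratio of TPM values (y axis, from 0) within each library for Pkd1 to Pkd2, Ganab to Prkcsh and Bicc1 to Anks6 in the 4 groups (x axis); points are libraries and bars are the arithmetic mean and SD of 4. The Bicc1 to Anks6 ratio is lower in every DOX library than in any DMSO library, from 7.05 or more in DMSO to 5.23 or less in DOX at 3 days and from 6.34 or more to 3.47 or less at 6 days.

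Pkhd1 (ENSMUSG00000043760, chr1:20057779-20618064, minus strand) spans 560286 bases in 69 exon blocks and encodes fibrocystin, a membrane protein of cilia. Its values were 122, 107, 121 and 139 CPM in DMSO and 110.0, 75.7, 85.0 and 72.4 CPM in DOX at 3 days. At 6 days they were 113, 89.9, 98.6 and 113 CPM in DMSO and 81.3, 80.4, 79.2 and 94.0 CPM in DOX. DOX replicate 1 reached into the DMSO range at 3 days and DOX replicate 4 at 6 days, and the other 6 DOX libraries lay below all DMSO libraries of their time. The log2 fold change was -0.51 ± 0.116 (SE) at 3 days, at the edge of the call (adjusted p = 0.0499955), and -0.30 ± 0.116 at 6 days (adjusted p = 0.429). Without DOX 3-day replicate 1 the 3-day value was -0.65 (adjusted p = 0.000833), and after the length and GC correction it was -0.35 (adjusted p = 0.389). That correction took 4026.8 bases for Pkhd1, the mean of its annotated transcripts, where counts over TPM imply 9669 to 12135 bases. Pkhd1 was called in 5 of the 12 other settings and in 4 of the 16 fits that left out a library.

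Cys1 (ENSMUSG00000062563, chr12:24665833-24681813, minus strand) encodes cystin, a lipid-anchored protein of the cilium whose loss underlies the congenital polycystic kidney mouse. It was the most strongly lowered of the 10. At 3 days its values were 37.5, 34.0, 37.1 and 39.7 CPM in DMSO and 18.3, 15.8, 18.3 and 18.0 CPM in DOX. After 6 days they were 30.6, 28.0, 32.5 and 32.9 CPM in DMSO and 13.5, 14.1, 12.5 and 16.6 CPM in DOX. No DOX library came near the DMSO range at either time. The level fell by 52.5% at 3 days (log2 fold change -1.07 ± 0.0817, adjusted p = 5.24e-08) and by 54.2% at 6 days (-1.13 ± 0.0833, adjusted p = 9.76e-09). The change between the times was -0.05 (95% interval -0.29 to 0.19). Cys1 stayed called in all 12 other settings and in all 16 fits that left out a library, with log2 fold changes from -1.24 to -1.01 over both times, and after the length and GC correction it was -1.07 at 3 days.

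Dzip1l (ENSMUSG00000037784, chr9:99629496-99669256, plus strand) encodes a protein of the ciliary transition zone, the gate through which polycystins enter. Its values were 21.1, 19.7, 20.6 and 21.9 CPM in DMSO and 17.1, 15.6, 15.3 and 15.9 CPM in DOX at 3 days. By 6 days they were 19.8, 20.6, 20.2 and 20.7 CPM in DMSO and 19.0, 18.2, 19.2 and 18.5 CPM in DOX. Both sets were separated without overlap, with little spread within a group. The log2 fold changes of -0.38 ± 0.0621 and -0.12 ± 0.0611 did not pass the test against a fold of 1.2 (adjusted p = 0.068 and 1). The 3-day value was -0.42 without DOX replicate 1 (adjusted p = 0.0248) and -0.21 after the length and GC correction (adjusted p = 1). The 6-day effect was less negative than the 3-day effect by 0.26 (adjusted p = 0.0426), and by 0.09 after the length and GC correction (adjusted p = 0.49). This difference was called in 3 of the 11 other settings and in 5 of the 16 fits that left out a library, and not by DESeq2 (adjusted p = 0.0624).

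Ganab (ENSMUSG00000071650, chr19:8898071-8916672, plus strand) and Prkcsh (ENSMUSG00000003402, chr9:22002806-22014222, plus strand) encode the catalytic and the regulatory subunit of glucosidase II and are genes of dominant polycystic kidney and liver disease. Ganab stood at 373, 355, 379 and 411 CPM in DMSO and 393, 319, 339 and 325 CPM in DOX at 3 days, and at 381, 345, 356 and 362 CPM in DMSO and 385, 410.3, 433 and 451 CPM in DOX at 6 days. For Prkcsh the 3-day values were 119, 120.3, 123 and 129 CPM in DMSO and 131, 119, 115 and 118 CPM in DOX, and the 6-day values were 132, 113, 111 and 108 CPM in DMSO and 139, 144, 151 and 151 CPM in DOX. Both subunits overlapped between groups at 3 days, and both were above DMSO in all 4 DOX libraries at 6 days. The 3-day log2 fold changes were -0.14 for Ganab and -0.03 for Prkcsh, or -0.21 and -0.07 without DOX replicate 1 and -0.11 and 0.04 after the length and GC correction, and none of these was called. The 6-day log2 fold changes of 0.22 (95% interval 0.07 to 0.36) for Ganab and 0.34 (0.21 to 0.47) for Prkcsh were not called (adjusted p = 0.883 and 0.137). The difference from the 3-day effect, tested with no fold threshold, was called for both subunits, at 0.36 for Ganab (adjusted p = 0.0175) and 0.36 for Prkcsh (adjusted p = 0.00816). It was 0.30 and 0.24 after the length and GC correction (adjusted p = 0.0181 and 0.00938).

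The ratio of Ganab to Prkcsh in TPM shifted little. Its geometric mean was 1.68 in DMSO and 1.54 in DOX at 3 days and 1.70 and 1.55 at 6 days, and the log2 differences of -0.13 and -0.14 had exact permutation p = 0.0571 at both times (adjusted 0.0686). The values ran from 1.62 to 1.72 in DMSO and 1.42 to 1.64 in DOX at 3 days and overlapped.

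Bicc1 and Anks6 encode partners, an RNA-binding protein and an ankyrin-repeat protein that join through their SAM domains. Bicc1 was called lower at 3 days and Anks6 higher at 6 days, and at neither time were both called. Bicc1 (ENSMUSG00000014329, chr10:70922832-71159700, minus strand) stood at 209, 203, 220.3 and 252 CPM in DMSO and 192, 152, 159 and 143 CPM in DOX at 3 days. Its 6-day values were 188, 178, 193 and 216 CPM in DMSO and 144, 156, 152 and 159.8 CPM in DOX. The DOX libraries lay below the DMSO libraries at both times, with DOX 3-day replicate 1 closest to them. The log2 fold change of -0.45 ± 0.0827 at 3 days was called (adjusted p = 0.0344), and that of -0.34 ± 0.0828 at 6 days was not (adjusted p = 0.216). At 3 days it was -0.55 without DOX replicate 1 (adjusted p = 0.000981) and -0.27 after the length and GC correction (adjusted p = 0.672). It was called in 6 of the 12 other settings and in 11 of the 16 fits that left out a library.

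Anks6 (ENSMUSG00000066191, chr4:47015669-47057427, minus strand) had 12.2, 15.4, 15.7 and 16.1 CPM in DMSO and 19.5, 18.9, 17.8 and 15.0 CPM in DOX at 3 days, where DOX replicate 4 lay within the DMSO range. At 6 days it had 16.7, 14.3, 13.3 and 13.1 CPM in DMSO and 23.4, 27.1, 27.0 and 30.2 CPM in DOX, clear of each other. The log2 fold change was 0.26 ± 0.104 at 3 days (adjusted p = 0.694) and 0.91 ± 0.101 at 6 days, a 1.88-fold rise (adjusted p = 4.88e-06), which held in all 12 other settings and all 16 fits that left out a library. The 3-day value was 0.21 without DOX replicate 1 (adjusted p = 0.797) and 0.42 after the length and GC correction (adjusted p = 0.0552). The effects at the times differed by 0.65 (95% interval 0.35 to 0.95, adjusted p = 0.00569), or by 0.43 after the length and GC correction (adjusted p = 0.0107).

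In TPM the ratio of Bicc1 to Anks6 was 8.42, 7.05, 8.56 and 9.35 in DMSO and 4.70, 5.23, 4.85 and 4.87 in DOX at 3 days, and 6.34, 7.05, 7.73 and 8.90 in DMSO and 3.32, 3.30, 3.47 and 3.08 in DOX at 6 days. The groups did not overlap at either time. The geometric means in DMSO and DOX were 8.30 and 4.91 at 3 days and 7.45 and 3.29 at 6 days, log2 differences of -0.76 and -1.18. Both had the smallest exact permutation p that 4 against 4 libraries allow, 0.0286, and did not pass after adjustment (adjusted p = 0.0571).

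Glis3 (ENSMUSG00000052942, chr19:28258851-28680077, minus strand) encodes a zinc finger transcription factor found in the primary cilium and the nucleus. It stood at 116, 110.1, 127 and 136 CPM in DMSO and 119, 75.2, 82.4 and 71.6 CPM in DOX at 3 days. At 6 days the values were 111, 93.4, 108 and 108 CPM in DMSO and 80.4, 83.3, 85.3 and 81.7 CPM in DOX. DOX replicate 1 again lay in the DMSO range at 3 days, and the groups were separated at 6 days. The log2 fold changes were -0.49 ± 0.121 (adjusted p = 0.0774) and -0.35 ± 0.121 (adjusted p = 0.305). The 3-day value was -0.68 without DOX replicate 1 (adjusted p = 2.61e-05) and -0.39 with the length and GC correction (adjusted p = 0.263). The correction took 2256 bases for Glis3, where counts over TPM imply 5872 to 7046 bases.

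**Figure D4:**
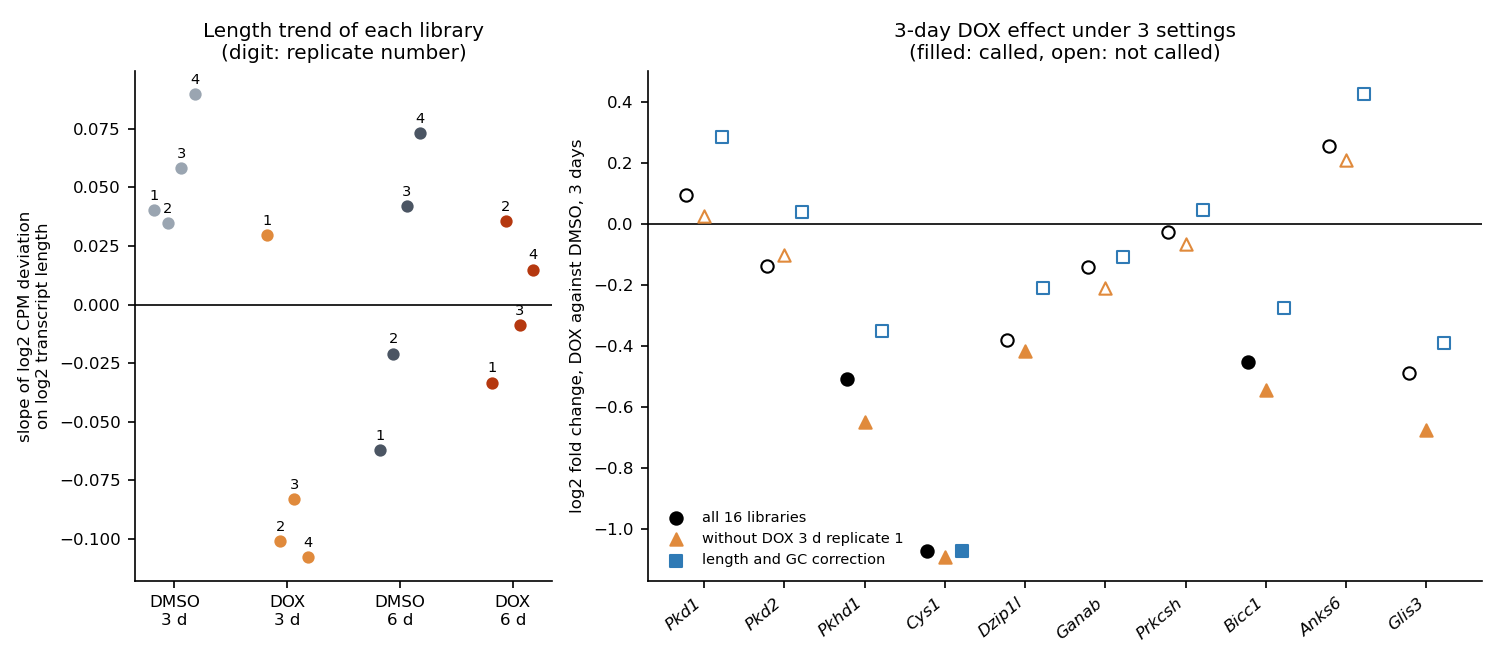
Left, slope of log2 CPM (as a deviation from the mean of all libraries) on log2 transcript length (y axis) for each library by group (x axis), digits giving the replicate; right, 3-day log2 fold change of DOX against DMSO (y axis) for each gene (x axis) with all 16 libraries (circles), without DOX 3-day replicate 1 (triangles) and after length and GC correction (squares), filled where called. Calls number 3, 5 and 1 under these settings, where those over all genes number 1658, 2295 and 1548, and Cys1 is the gene called under each.

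The 3-day calls depended on the libraries and on the correction. Without DOX 3-day replicate 1, 5 of the 10 genes were called, all lower (Pkhd1, Cys1, Dzip1l, Bicc1 and Glis3), and after the length and GC correction Cys1 alone was. Calls over all 13234 genes moved as well. They numbered 1658 with all libraries, 2295 without DOX 3-day replicate 1 (1079 higher and 1216 lower) and 1548 after the correction. The 6-day calls of Pkd1, Cys1 and Anks6 were the same 3 genes under the correction, with log2 fold changes of 0.64, -1.18 and 0.85. Pkhd1, Bicc1 and Glis3, whose 3-day levels varied with the library, also varied together within groups: after removal of the group means their pairwise correlations were 0.869 to 0.884 over 16 libraries, which share the length trend, and 0.775 to 0.837 once length and GC were corrected. This was not particular to these 3 genes. Ganab had within-group correlations of 0.812 to 0.882 with them, and 0.795 to 0.875 once corrected. Pkd1 and Ganab had 0.863, and 0.741 once corrected. Before correction the other pairs of the 10 ran lower, from 0.753 for Pkd1 and Bicc1 down to -0.589 for Pkd2 and Prkcsh. These correlations describe libraries and carry no test.

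Across all tested genes, the closest in pattern over the 16 libraries were, by Pearson's r of log2 CPM, D430042O09Rik (0.977), Gna12 (0.972) and Zfp219 (0.962) for Pkd1. For Pkd2 they were Eif2ak2 (0.942), B3glct (0.913) and Fam208a (0.896). For Pkhd1 they were Tent4a (0.957), Zfyve26 (0.957) and Glis3 (0.956). The values include the differences between groups and the length trend of the libraries. Within groups and after the length and GC correction, r was 0.583 to 0.796 for the 3 genes closest to Pkd1. It was 0.344 (Eif2ak2) to 0.641 for those of Pkd2 and 0.775 to 0.865 for those of Pkhd1.

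Other genes of the same pathways were described from 7 lists with 54 genes, of which 47 could be tested. DOX called 3 of the 47 at 3 days, 1 higher and 2 lower, or 6.38%, where 12.5% of all genes were called. At 6 days it called 8, 6 higher and 2 lower, or 17.0% against 21.6%. The gene called higher at 3 days was Pkhd1l1, and those called higher at 6 days include Pkhd1l1 and Dzip1. Both genes passed the filter only through DOX libraries, where they were higher, so their calls are no support for a rise. The median log2 fold changes were 0.00 and 0.08. The effects at 6 and 3 days differed by the test in 14 of the 47, 11 more positive at 6 days and 3 less, or 29.8%, where 17.0% of all genes were called. Of these 14, 6 were among 9 ciliary delivery genes, 5 among 8 genes of N-glycan trimming, 2 among 10 other dominant cystic genes and 1 among 5 transcription factors. Dzip1, with the same limit, was among those 6 and was more positive at 6 days. The other lists, with 4, 10 and 1 tested genes, held 0.

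Of 5 tested transcription factors of cystic kidney genes, among them Pax2 and Glis2, none was called by edgeR at 3 or 6 days, with 1 at an unadjusted p under 0.05 at each time and 0 called by DESeq2. Glis2, the relative of Glis3, had log2 fold changes of -0.36 and -0.37 (adjusted p = 0.122 and 0.075), and Pax2, which acts in tubule development, had -0.28 and -0.02 (adjusted p = 0.564 and 1).

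Around glucosidase II, 1 of 8 genes of N-glycan trimming and the calnexin cycle was called at 3 days and 3 at 6 days. Calr, the chaperone calreticulin, fell by 0.82 and by 0.54 on the log2 scale (adjusted p = 1.92e-08 and 4.16e-05). Mogs, which encodes glucosidase I and removes the glucose residue before glucosidase II acts, had a 3-day value of 0.06 (adjusted p = 1) and rose by 0.68 at 6 days (adjusted p = 0.000112). Uggt2, a homolog of the enzyme that returns glucose to misfolded glycoproteins, had 0.49 (adjusted p = 0.0559) and 0.59 (adjusted p = 0.0056). By DESeq2 the 6-day change of Uggt2 was not called (adjusted p = 0.0804), and by limma on log2(TPM + 1) its values were -0.09 and 0.48 (adjusted p = 1 and 0.621). The 6-day effect was more positive than the 3-day effect for Mogs by 0.63 and for Calr by 0.27 (adjusted p = 0.00294 and 0.0187). Of 10 other genes of dominant kidney and liver cysts, none was called at 3 days by edgeR (1 at an unadjusted p under 0.05, 0 by DESeq2), and Alg8, a glucosyltransferase that builds the glycan precursor, was the 1 called at 6 days, with a log2 fold change of 0.52 (adjusted p = 0.000745) that limma on log2(TPM + 1) did not call (adjusted p = 0.362).

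In the list on delivery of polycystins and fibrocystin to the cilium 0 of 9 were called at 3 days (0 at an unadjusted p under 0.05, and 0 by DESeq2) and 2 at 6 days, both higher. Dzip1, the relative of Dzip1l, had 0.51 to 0.87 CPM in DMSO and 2.21 to 2.83 CPM in DOX at 6 days, a log2 fold change of 1.86 (adjusted p = 2.17e-06) at a low level. It reached 1 CPM in 2 of 8 DMSO and 8 of 8 DOX libraries, so it was tested only through the group in which it was higher, and the call is no support for a rise. Rabep1, which acts in sorting the polycystins at the Golgi, had log2 fold changes of 0.30 (adjusted p = 0.385) and 0.51 (adjusted p = 0.0004). With no fold threshold its 3-day change had an adjusted p of 0.000343 by edgeR, so a smaller 3-day rise was seen. By limma on log2(TPM + 1) the 6-day changes of Dzip1 and Rabep1 were not called (adjusted p = 0.294 and 0.991). Of the 6 genes with a difference between the times, Arl3 was the 1 that was less positive at 6 days.

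None of the 4 partners of ANKS6 and BICC1 (Nek8, Invs, Anks3 and Hif1an) was called at 3 or 6 days by edgeR or DESeq2. By edgeR there was 0 at an unadjusted p under 0.05 against the fold of 1.2 at both times. These tests bear only on changes past that fold. The log2 fold changes ran from -0.35 (Nek8, SE 0.0904) to 0.17 at 3 days. At 6 days they ran from -0.18 to 0.36 (Invs, SE 0.0988). Of 7 relatives of the polycystins and fibrocystin, 6 were at a mean of 0.15 TPM or less and were not tested. The exception, Pkhd1l1, a fibrocystin-like gene, was low as well, at 0.38 to 1.03 CPM in DMSO and 1.05 to 1.90 CPM in DOX at 3 days, and its log2 fold changes of 1.08 and 1.16 were called (adjusted p = 0.023 and 0.00825). It reached 1 CPM in 1 of 8 DMSO and 7 of 8 DOX libraries, so it too was tested only through the group in which it was higher. By DESeq2 the 3-day change was not called (adjusted p = 0.121).

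Among 10 tested genes of other inherited cystic kidney disease, 1 was called at each time. Muc1, an apical mucin whose frameshift mutations cause a dominant tubulointerstitial disease, ran from 13.7 to 15.5 CPM in DMSO and 4.56 to 6.99 CPM in DOX at 3 days, and its log2 fold changes were -1.39 (adjusted p = 3.51e-06) and -1.45 (adjusted p = 9.76e-07). The remaining 9, among them Tsc1, Tsc2, Vhl and Ift88, were not called at either time. In the whole list 3 genes at 3 days and 2 at 6 days had an unadjusted p under 0.05 by edgeR against the fold threshold. These tests bear only on changes past that fold. Ift88 had log2 fold changes of 0.37 (SE 0.0654, adjusted p = 0.109) and 0.38 (SE 0.0648, adjusted p = 0.0574). Those of Tsc1, Tsc2 and Vhl ran from -0.09 to 0.13 over both times.

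**Figure D5:**
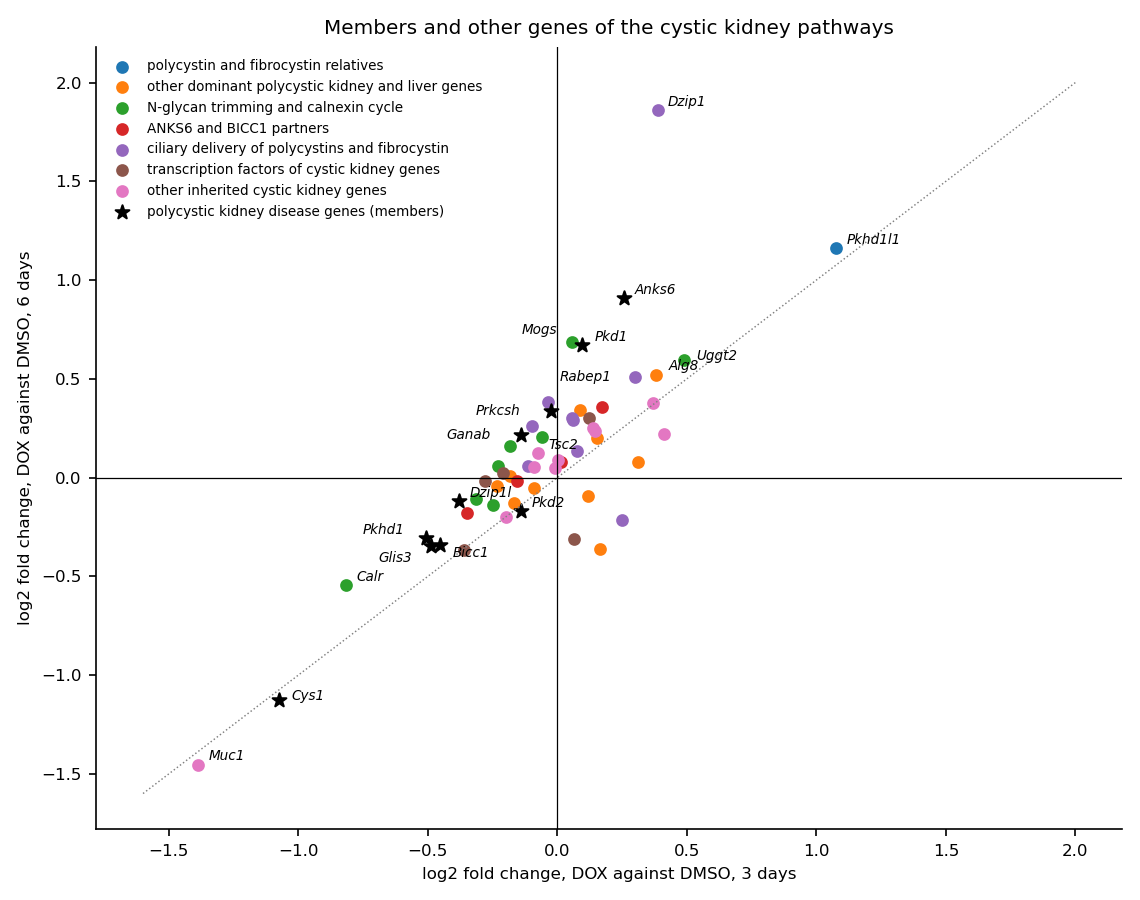
log2 fold changes of DOX against DMSO at 3 days (x axis) and 6 days (y axis) for the 10 genes (stars) and for the 47 tested genes of the pathway lists (dots, coloured by list), with the dotted line marking equal values. Cys1 sits near the line at about -1.1 at both times above Muc1, and Pkd1, Anks6 and Mogs sit above it.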

How the data were processed

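RNA was measured in 16 poly(A)-selected, strand-specific libraries of mIMCD3 cells, 4 in each of the groups DMSO 3 days, DOX 3 days, DMSO 6 days and DOX 6 days. The authors aligned paired reads with STAR to GRCm38.p6 and quantified them with Salmon; they deposited estimated counts per gene, of which 20.07% were not whole, and TPM values per gene on GENCODE M21. The count table lists 54393 genes and that of TPM values lists 53354; the labels assign every column to a library. Whether counting used strand is not given in the sources used here.

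Counts were rounded, and genes with at least 1 CPM in 4 or more libraries were kept, which left 13234. edgeR 4.0.16 (R 4.3.3) fitted all 16 libraries with TMM scaling, a group mean model and robust quasi-likelihood dispersions. DOX against DMSO at each time and DMSO at 6 against 3 days were tested against a fold of 1.2 with glmTreat, and the difference of the DOX effects with glmQLFTest, in all cases with Benjamini-Hochberg adjustment over the genes tested; a gene was called at an adjusted p under 0.05. Intervals of 95% and standard errors come from the test with no fold threshold. Ratios of TPM values were compared with exact two-sided permutation tests over the 70 arrangements of 8 libraries. Between-gene levels were compared as TPM, and 3 counts in a library correspond to 0.125 to 0.177 CPM. The script was tested on simulated counts. The numbers of the replicates did not pair the libraries. No sequencing batch is labelled.

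Alternatives were DESeq2 1.42.0, limma 3.58.1 on log2(TPM + 1) and log2(TPM + 0.1), RLE scaling, no fold threshold, other filters, non-robust estimation, a replicate block, only the 8 libraries compared, an offset for mean transcript length and GC fitted by splines, and leaving out each library. The offset used the mean length of the annotated transcripts of a gene. For Pkhd1, Pkd1, Glis3 and Ganab this was 4026.8, 2932.7, 2256 and 1836.5 bases. Counts over TPM imply at least 9669, 5625, 5872 and 3430 bases, so their offsets were set for shorter transcripts. Pkd2, Prkcsh and Bicc1 also had means below the implied range, and Cys1, Dzip1l and Anks6 had means within it. The genes named are the 10 described, up to 3 called at 6 days from each list by size of change, Tsc2 and the 3 genes closest in pattern to Pkd1, Pkd2 and Pkhd1; Arl3, Tsc1, Vhl, Ift88, Glis2, Pax2 and the partners of ANKS6 and BICC1 were named in addition after their values were seen. The 10 genes and the lists were chosen with earlier results of these data known. Some genes of the lists are not reported here, and counts over the lists leave them out. Upstream sequences came from RefSeq windows.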

Additional observations from a re-analysis of the deposited data

Results flagged for a closer look

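In 3 of 52 groups of 4 libraries checked, 1 library stood further from the others than Dixon's 95% limit, which chance alone gives in about 1 of 20. Pkhd1 reached 94.0 CPM in DOX 6-day replicate 4, where the others had 79.2 to 81.3 CPM. Cys1 had 15.8 CPM in DOX 3-day replicate 2, where the others had 18.0 to 18.3 CPM. Glis3 had 93.4 CPM in DMSO 6-day replicate 2, where the others had 108 to 111 CPM.

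The effect of DOX differed between 6 and 3 days, by the edgeR quasi-likelihood test of the difference, for 5 of the 10 genes. The 6-day minus the 3-day log2 fold change was 0.57 for Pkd1 (adjusted p = 0.00884), 0.65 for Anks6 (adjusted p = 0.00569), 0.36 for Ganab (0.3582, adjusted p = 0.0175), 0.36 for Prkcsh (0.3649, adjusted p = 0.00816) and 0.26 for Dzip1l (adjusted p = 0.0426). Of all genes, 17.0% differed. After the length and GC correction, made in all 16 libraries at once, these differences were 0.35, 0.43, 0.30, 0.24 and 0.09, and the first 4 stayed called. The part of the 3-day length trends in them was not tested.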

How the results depend on the processing

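The number of the 10 genes called at 3 days, 3 as reported, was 1 (Cys1) by DESeq2, by limma on log2(TPM + 1) and on log2(TPM + 0.1), with only the 8 libraries of the comparison, with the length and GC correction and with the replicate block plus this correction, and 6 with no fold threshold. Leaving out 1 library gave 1 to 5 genes. It gave 5 without DOX 3-day replicate 1, and 1 without DMSO 3-day replicate 3 or 4 or DOX 3-day replicate 2, 3 or 4. At 6 days the number, 3 as reported, was 9 with no fold threshold and 3 to 4 without 1 library; Pkd1 was not called by limma on TPM (adjusted p = 0.158 and 0.108). For the difference between the times, 5 as reported, it was 0 by limma with either pseudocount and 0 against a fold of 1.2, and 4 to 7 without 1 library, 7 without DOX 3-day replicate 1. Of the pathway genes, 3 and 8 as reported, 19 and 26 were called with no fold threshold at 3 and 6 days.

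Without 1 library the log2 ratio differences ran from 0.11 to 0.42 and 0.89 to 1.11 (Pkd1 to Pkd2 at 3 and 6 days), from -0.158 to -0.0888 and -0.17 to -0.11 (Ganab to Prkcsh) and from -0.84 to -0.70 and -1.26 to -1.09 (Bicc1 to Anks6). Without DOX 3-day replicate 3 the adjusted exact p at 3 days was 0.0429 for both Ganab to Prkcsh and Bicc1 to Anks6. Without DMSO 6-day replicate 1 it was 0.0429 for all 3 ratios at 6 days. The unadjusted exact p could not fall below 0.0286. Whether an adjusted p fell under 0.05 thus hung on how many of the 6 tests reached that bound, and the lower values are no added support.

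With the replicate block 3, 3, 4 and 0 of the 10 genes were called at 3 days, at 6 days, for the difference and for time in DMSO, Dzip1l being lost for the difference (adjusted p = 0.0609). Libraries of the same number deviated apart, with mean correlations of -0.0955, -0.121 and -0.113, and none matched its own number best, so the numbers were not taken to pair them; for the ratios a paired test of 4 could not go below 0.125.

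Over all genes 1658, 2856 and 2252 were called at 3 days, at 6 days and for the difference. DESeq2 called 1019 at 3 days. The length and GC correction gave 1548 at 3 days. Leaving out 1 library gave 1366 (DOX 3-day replicate 2) to 2295 (DOX 3-day replicate 1) at 3 days. limma on log2(TPM + 1) called 701, 1307 and 659, on log2(TPM + 0.1) 909, 1527 and 631. With no fold threshold 5982 and 6702 were called, and 183 differences against a fold of 1.2; without 1 library there were 1369 (DMSO 3-day replicate 4) to 3787 (DOX 3-day replicate 1) differences. limma on log2(TPM + 1) gave 85 higher and 616 lower at 3 days, where edgeR gave 702 and 956, 376 and 931 at 6 days, where edgeR gave 1326 and 1530, and its median over all genes was -0.15 at 3 days and 0.10 for the difference. With no filter 1240 differences were more positive and 997 less, where the reported fit gave 984 and 1268. The cause was not tested.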
